A study of Mus musculus with 10 samples.

Results

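The clade B serpins were followed through RNA-seq of mouse prostate cancer organoids. They were taken as every gene row whose symbol begins with SERPINB and a digit, which gave 27 of the 24043 rows of the chemical table and the same 27 in the genetic table. The family was chosen by the fall of SERPINB11 in the libraries labelled Tamoxifen, so values of that comparison are given as a description only, and tests are given for DZNep against DMSO.

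Clade B serpins are mostly intracellular protease inhibitors. A target protease cuts the exposed reactive loop of the serpin and is then trapped on it in a covalent complex, so each inhibitor molecule works once. In epithelia and in leukocytes they guard the cell against its own lysosomal and granule proteases, against granzymes delivered by cytotoxic lymphocytes, and against proteases met at the cell surface. A few members, such as the epithelial protein maspin, have the serpin fold without trapping a protease.

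The organoids came from the dorsal-lateral prostate lobe of C57BL/6 mice aged 8 weeks. All of them carried MYC overexpression, floxed EZH2 alleles and an inducible PSA-CreERT2, a recombinase under a prostate-specific promoter, and all were grown with 10 nM of the androgen R1881. In the chemical experiment 3 libraries were made after 1 µM DZNep, used in the series to inhibit the histone methyltransferase EZH2, and 3 after DMSO. In the genetic experiment 2 libraries were made after 1 µM Tamoxifen, which activates Cre, and 2 after ethanol (EtOH), and RNA was taken at 3 days throughout. The labels do not say whether replicates were grown apart or came from different mice. A p-value here therefore speaks of library-to-library spread alone, part or all of which may be technical.

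The deposited values are log2(RPKM + 1), where RPKM is read density scaled for gene length and library size, so levels of different genes can be set side by side within a table. RPKM totals ran from 469455 to 512726 per library and 15021 to 15404 genes lay above 0. EZH2 measured 22.5, 24.2 and 24.7 RPKM in DZNep, against 30.4, 29.8 and 27.1 RPKM in DMSO. In the libraries labelled Tamoxifen it measured 32.0 and 33.2 RPKM, against 28.0 and 33.96 RPKM in EtOH. It was thus not lower in the libraries labelled Tamoxifen, though a value for the whole gene includes exons outside the floxed part and does not check the deletion.

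The mouse family lies in a pair of gene clusters, with 12 members on chromosome 1 and 15 on chromosome 13 in the RefSeq gene table of GRCm38.p6. That is another build than the mm9 used for the deposited values, so coordinates below belong to GRCm38.p6 only. RefSeq promoters, 250 bases before to 50 bases after an annotated start, were matched by symbol for 25 of the 27 members (31 starts). Serpinb2 has another annotated start, whose promoter (chr1:107511260-107511559) overlaps the one printed below and is not printed. The promoters of 4 members whose levels differed most between groups are shown, with matches to the searched motifs in capitals:

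Serpinb6b promoter, chr13:32965011-32965310, plus strand: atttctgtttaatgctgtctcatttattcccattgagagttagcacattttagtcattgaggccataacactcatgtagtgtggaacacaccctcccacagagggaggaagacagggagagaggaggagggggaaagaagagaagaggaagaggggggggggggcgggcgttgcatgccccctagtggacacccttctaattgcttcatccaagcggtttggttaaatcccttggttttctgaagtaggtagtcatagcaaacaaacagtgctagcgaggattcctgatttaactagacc
Serpinb9 promoter, chr13:33004291-33004590, plus strand: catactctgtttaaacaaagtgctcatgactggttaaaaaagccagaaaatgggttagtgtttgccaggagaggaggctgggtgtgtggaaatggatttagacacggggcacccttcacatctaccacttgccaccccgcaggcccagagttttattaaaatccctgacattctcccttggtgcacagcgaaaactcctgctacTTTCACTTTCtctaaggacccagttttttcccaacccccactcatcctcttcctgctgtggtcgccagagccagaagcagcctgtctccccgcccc
Serpinb2 promoter, chr1:107511173-107511472, plus strand: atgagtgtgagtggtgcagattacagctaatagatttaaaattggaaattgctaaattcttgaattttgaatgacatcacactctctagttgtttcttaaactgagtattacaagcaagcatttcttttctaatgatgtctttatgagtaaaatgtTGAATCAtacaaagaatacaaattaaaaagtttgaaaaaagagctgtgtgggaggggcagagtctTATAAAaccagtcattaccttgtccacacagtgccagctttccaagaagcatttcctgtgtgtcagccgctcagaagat
Serpinb11 promoter, chr1:107362064-107362363, plus strand: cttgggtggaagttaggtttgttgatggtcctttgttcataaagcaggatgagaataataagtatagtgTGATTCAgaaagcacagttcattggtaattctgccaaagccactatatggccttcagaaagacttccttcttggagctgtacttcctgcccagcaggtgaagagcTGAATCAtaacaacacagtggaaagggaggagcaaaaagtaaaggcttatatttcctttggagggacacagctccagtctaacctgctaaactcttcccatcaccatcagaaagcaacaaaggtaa

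Motifs were searched on both strands and at any position of the promoter. TGANTCA is a loose form of the AP-1 transcription factor site, which usually has C or G at N. GAAA and GAAA with NN between them is the core of the interferon-stimulated response element. GGGA and CC with NNNN between them is an NF-kB site. CACGTG is the E-box bound by MYC, and TATAAA is the core of a TATA box. The loose AP-1 motif was found for 7 of 11 chromosome 1 members with a promoter and 0 of 14 chromosome 13 members. Among all 32851 mouse promoters of this length, 7.81% hold it. Its N was G in Serpinb7 and Serpinb8, but only A or T in Serpinb5, Serpinb12, Serpinb11, Serpinb2 and Serpinb10. The share of promoters with C or G at N was not counted. Among the 11, only the 4 SERPINB3 genes had no match. Serpinb11, shown above, holds it at 181 and 76 bases before its start. The matches of the members whose whole promoters are not printed are shown with 10 bases on each side, to show how the flanks differ, with the motif in capitals:

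Serpinb5, chr1:106861025-106861051, plus strand: aagttgggccTGAATCAtgtcttccaa
Serpinb12, chr1:106934394-106934420, plus strand: aaaaacaatcTGATTCAcgatcattat
Serpinb7, chr1:107422634-107422660, plus strand: agggagtgtcTGAGTCAgaggctttat
Serpinb10, chr1:107528939-107528965, plus strand: cttgtgaaagTGAATCAagggtggggc
Serpinb8, chr1:107589973-107589999, plus strand: gtgggaagtgTGAGTCAcagagtgttc
Serpinb8, chr1:107590009-107590035, plus strand: cattatgttcTGAGTCAcccgacaggc

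The Serpinb8 pair lies 23 bases before and 13 bases after its start. For TATAAA neither the strand nor the distance of a working TATA box was required. In Serpinb3d, Serpinb7 and Serpinb6c it lay only on the strand opposite to the gene. In Serpinb12 it lay 220 and 201 bases before the 2 starts. Counted in this way, TATAAA was found for 7 of 11 chromosome 1 members and 2 of 14 chromosome 13 members, with 13.6% among all promoters. Such shares are per promoter, while the counts are per member, some with 2 starts. Apart from Serpinb5 (58.3%) and Serpinb8 (53.3%), chromosome 1 promoters held 31.7% to 42.7% G and C, against a median of 52.7% over all promoters. Chromosome 13 promoters held 43.3% to 57.3%. The part of base content in the motif counts was not tested. The interferon response core, seen in 3.44% of all promoters, was found for 2 chromosome 13 members, Serpinb9 (46 bases before the start) and Serpinb6a (84 bases before 1 of its 2 starts). The NF-kB motif was found for Serpinb8, Serpinb6a and Serpinb9g, against 20.7% of all promoters, and the E-box for 0 of the 25 members, against 7.15%. No searched motif fell in the Serpinb6b promoter. A match is a run of letters and does not show binding, and members of a cluster that arose by duplication are not independent of each other.

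**Figure D1:**
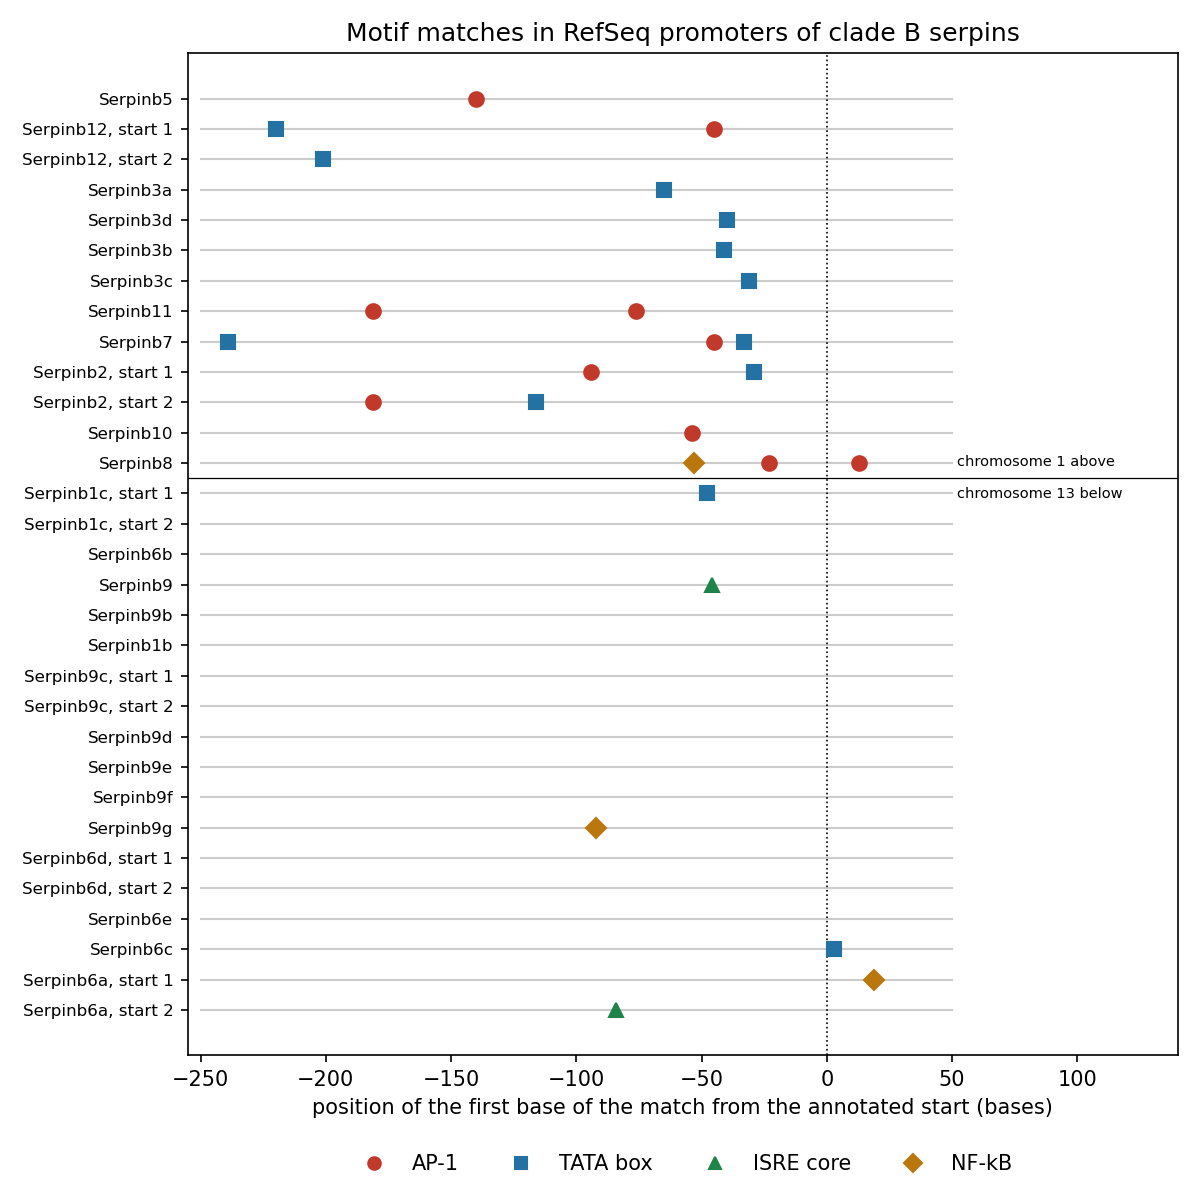
Each row is a RefSeq promoter of a clade B serpin, in the order of the genes along chromosomes 1 and 13, and each mark is the first base of a motif match, by distance in bases from the annotated start (dotted line). Matches to TGANTCA, the loose AP-1 motif, stand in 7 of 11 chromosome 1 members and in 0 of 14 chromosome 13 members.

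A few members made up most of the family's RNA. The summed level of the 27 members ran from 241.8 to 252.5 RPKM in DZNep and from 236.1 to 252.4 RPKM in DMSO, and from 230.4 to 238 RPKM in the libraries labelled Tamoxifen and from 259.2 to 264.4 RPKM in EtOH. SERPINB6A, a broadly expressed inhibitor of serine proteases such as cathepsin G, and SERPINB5, maspin, together gave 75.1% to 82.99% of that sum in each of the 10 libraries. In the DMSO libraries the order was SERPINB6A (114.7 to 127.6 RPKM), SERPINB5 (72.6 to 75.3), SERPINB1A (14.8 to 16.3), SERPINB11 (9.52 to 11.1), SERPINB8 (7.42 to 8.56), SERPINB9 (6.38 to 7.43) and SERPINB6B (5.76 to 6.85). Only SERPINB8 and SERPINB9, and SERPINB9 and SERPINB6B, overlapped their neighbour in that order. The EtOH libraries gave the same order of these 7 members, with overlap of the same pairs.

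Below them, SERPINB10, SERPINB2, SERPINB1B and SERPINB9B averaged between 0.248 and 0.673 RPKM in DMSO. Of the others in the chemical table, 7 reached at most 0.0727 RPKM and 9 were listed at 0 in every library. Those 9 were also listed at 0 in all 4 genetic libraries. They include all 4 SERPINB3 genes, relatives of the human squamous cell carcinoma antigens, and SERPINB13, a cathepsin L inhibitor of stratified epithelia. SERPINB7, also called megsin, and SERPINB12, also called yukopin, were among the 7, at no more than 0.0638 and 0.0573 RPKM. RPKM keeps no absolute depth, so how many reads stand behind such values is not known.

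**Figure D2:**
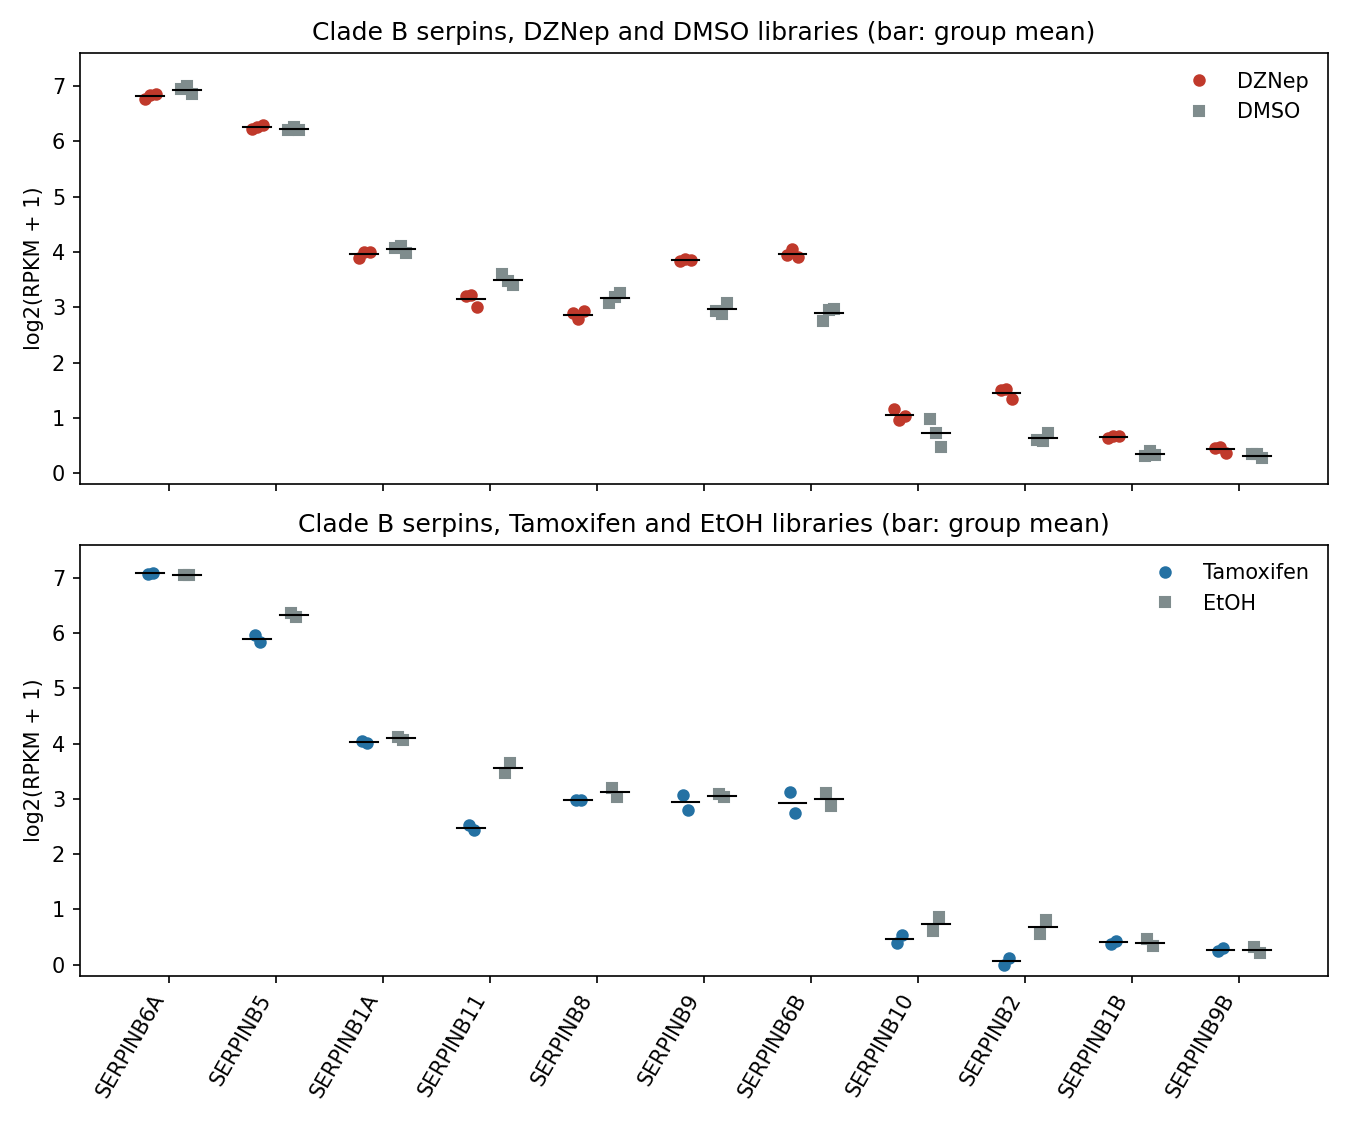
Each point is a library, on the log2(RPKM + 1) scale, for the 11 members that average at least 0.1 RPKM in a table, and bars are group means of 3 libraries (DZNep, DMSO) or 2 (Tamoxifen, EtOH). SERPINB9, SERPINB6B and SERPINB2 stand above DMSO in all 3 DZNep libraries, and SERPINB11 stands below EtOH in both Tamoxifen libraries.

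How the family's expression differs after DZNep was asked first. SERPINB9 and SERPINB6B, inhibitors of cytotoxic granzymes, rose by 0.89 and 1.08 on the log2(RPKM + 1) scale, the urokinase inhibitor SERPINB2 rose, and SERPINB11 and SERPINB8 fell. A gene was tested where it averaged at least 1 RPKM over the 6 libraries, and 8 of the 27 members did so. Of these 8, limma called 3 higher and 2 lower at an adjusted p under 0.05, while over all 11143 genes tested it called 16.6% higher and 11.1% lower. The 3 and the 2 were also the members whose libraries did not overlap, above and below DMSO, as held for 26.1% and 19.4% of all genes tested. The median log2 difference was -0.03 over the 8 members and 0.01 over all genes tested. SERPINB2 reached 1 RPKM only through its DZNep libraries, so the count of rises is not independent of that threshold.

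SERPINB9, the intracellular inhibitor of granzyme B, measured 13.3, 13.6 and 13.5 RPKM in DZNep, against 6.62, 6.38 and 7.43 RPKM in DMSO. The groups did not overlap, and the SD of the DZNep libraries was 0.139 RPKM. Its log2 difference was 0.89 (SE 0.0587; limma adjusted p = 6.36e-05), a ratio of mean RPKM of 1.98. Only 136 of the 11143 genes tested had a larger rise.

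SERPINB6B, a mouse paralogue of SERPINB6A that inhibits granzyme A, measured 14.4, 15.7 and 14.0 RPKM in DZNep, against 5.76, 6.72 and 6.85 RPKM in DMSO. All 3 DZNep libraries exceeded every DMSO library by more than 2-fold. The log2 difference was 1.08 (SE 0.0719; limma adjusted p = 6.83e-05) and the ratio of mean RPKM 2.28. SERPINB6B and SERPINB9 are next to each other among the protein-coding genes of chromosome 13. Their transcripts are distinct: of the 50-base stretches of the GENCODE M21 transcripts of SERPINB6B, 2.26% also occur in another family member, mostly SERPINB6C, and of those of SERPINB9 0.378%, in SERPINB9B.

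SERPINB2, plasminogen activator inhibitor 2, which inhibits urokinase and is induced in stressed epithelia and macrophages, measured 1.83, 1.88 and 1.54 RPKM in DZNep, against 0.514, 0.504 and 0.654 RPKM in DMSO. The groups were apart, at a low level. Its log2 difference was 0.82 (SE 0.0836; limma adjusted p = 5.98e-04), and with no filter on low values the adjusted p was 0.00992. The ratio of mean RPKM was 3.14, larger than the log2(RPKM + 1) scale shows for so weak a gene. SERPINB2 shares 10.4% of its 50-base stretches with annotated transcripts of SERPINB10, its neighbour, so reads of the 2 genes may not be fully told apart.

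SERPINB11, called epipin, a trypsin-like protease inhibitor in the mouse, measured 8.23, 8.33 and 7.04 RPKM in DZNep, against 11.1, 10.1 and 9.52 RPKM in DMSO. Every DZNep library was below every DMSO library. The log2 difference was -0.34 (SE 0.0770; limma adjusted p = 0.0148), or a ratio of mean RPKM of 0.767. Its transcripts shared 0 of their 50-base stretches with other members.

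SERPINB8, whose human counterpart inhibits the proprotein convertase furin, measured 6.41, 5.92 and 6.60 RPKM in DZNep, against 7.42, 8.09 and 8.56 RPKM in DMSO. The groups did not overlap here either. The log2 difference was -0.30 (SE 0.0641; limma adjusted p = 0.0122). Without DMSO 2 neither fall passed, with adjusted p = 0.0515 for SERPINB11 (log2 difference -0.35) and 0.0522 for SERPINB8 (-0.30), and with no filter on low values the adjusted p was 0.0911 and 0.0648.

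The 3 most abundant members did not pass the test. SERPINB5, widely studied as an inhibitor of invasion in prostate and breast, measured 73.5, 76.1 and 77.7 RPKM in DZNep, against 73.0, 75.3 and 72.6 RPKM in DMSO (log2 difference 0.04, SE 0.0460; limma adjusted p = 0.528). SERPINB6A measured 108.1, 113.7 and 114.8 RPKM in DZNep, against 123.3, 127.6 and 114.7 RPKM in DMSO, the groups meeting at their edges (-0.12, SE 0.0562; limma adjusted p = 0.154). After quantile normalization its adjusted p was 0.0256, with a log2 difference of -0.16. SERPINB1A, an inhibitor of neutrophil elastase and cathepsin G, measured 13.8, 15.1 and 15.0 RPKM in DZNep, against 15.9, 16.3 and 14.8 RPKM in DMSO, with overlap (-0.09, SE 0.0566; limma adjusted p = 0.246).

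The 3 highest members below the filter in the chemical table were looked at with no filter. SERPINB1B, a paralogue of SERPINB1A, measured 0.553, 0.587 and 0.586 RPKM in DZNep, against 0.241, 0.321 and 0.262 RPKM in DMSO (log2 difference 0.31, limma adjusted p = 0.0103 in the unfiltered fit). SERPINB9B, a paralogue of SERPINB9, measured 0.371, 0.394 and 0.282 RPKM in DZNep, against 0.266, 0.274 and 0.203 RPKM in DMSO (0.11, adjusted p = 0.217 by limma). SERPINB10, a bone marrow serpin also called bomapin, measured 1.23, 0.957 and 1.05 RPKM in DZNep, against 0.980, 0.648 and 0.390 RPKM in DMSO, where the groups overlapped (0.33, adjusted p = 0.304 by limma).

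Of 32 listed proteases, receptors and related genes tied to these serpins, 16 passed the filter. Limma called 3 of the 16 higher and 2 lower, shares near the 16.6% and 11.1% of all genes tested, with a median log2 difference of 0.04. CASP4, an inflammatory caspase, averaged 15.97 ± 0.580 RPKM in DZNep and 10.2 ± 0.352 RPKM in DMSO (SD, n = 3 each; log2 difference 0.60, limma adjusted p = 2.23e-04). PRSS8, the membrane protease prostasin, averaged 31.7 ± 1.46 RPKM in DZNep and 25.5 ± 1.61 RPKM in DMSO (0.30, limma adjusted p = 0.00944). CTSC, which activates granule proteases, averaged 49.5 ± 1.01 RPKM in DZNep and 43.5 ± 2.16 RPKM in DMSO (0.18, limma adjusted p = 0.0329). The falls were PLAUR, the urokinase receptor, at 36.3 ± 2.93 RPKM in DZNep and 45.6 ± 2.54 RPKM in DMSO (-0.32, limma adjusted p = 0.0131), and F2RL1, a receptor activated by trypsin-like proteases, at 32.2 ± 1.22 RPKM in DZNep and 38.2 ± 1.95 RPKM in DMSO (-0.24, limma adjusted p = 0.0170). PLAU, urokinase itself, gave 0.07 (limma adjusted p = 0.338) and FURIN -0.18 (0.0961). Granzymes A and B, neutrophil elastase and cathepsin G were listed at 0 in all 6 libraries.

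Among serpins of the other clades, most of which are secreted, 8 of 36 passed the filter. Limma called 6 of the 8 higher and 0 lower, against 16.6% and 11.1% of all genes tested (median log2 difference 0.42). SERPINE2, protease nexin 1, averaged 30.3 ± 1.72 RPKM in DZNep and 18.7 ± 1.38 RPKM in DMSO (SD, n = 3 each; 0.67, limma adjusted p = 5.21e-04). SERPINA9 averaged 1.62 ± 0.155 RPKM in DZNep and 0.604 ± 0.0275 RPKM in DMSO (0.71, limma adjusted p = 7.21e-04), and it too passed the filter only through DZNep. SERPINA3H, of the large mouse antichymotrypsin group whose near-identical copies may share reads, averaged 86.9 ± 3.20 RPKM in DZNep and 64.4 ± 1.98 RPKM in DMSO (0.43, limma adjusted p = 0.00106). SERPINA3F, SERPINA3G and SERPINA3I, of the same antichymotrypsin group, were also among the 6, so the 6 are not separate from each other. No test set the serpins of other clades against the clade B members.

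**Figure D3:**
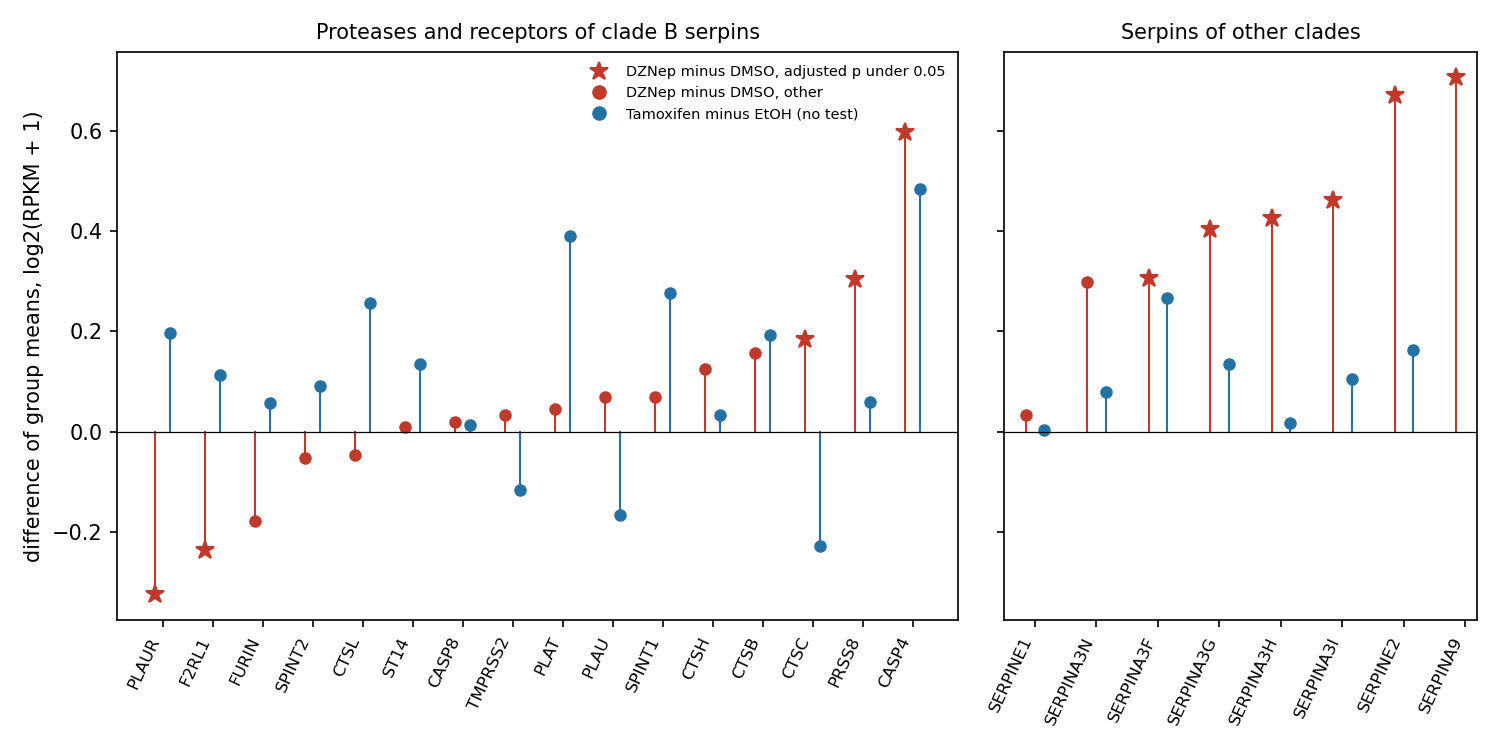
Differences of group means on the log2(RPKM + 1) scale for the listed proteases and receptors (left) and the serpins of other clades (right) that averaged at least 1 RPKM, with stars for DZNep differences past the threshold and blue points for Tamoxifen minus EtOH, which was not tested. CASP4 (0.60) is the highest DZNep value on the left. On the right 6 of 8 other-clade serpins carry a star, all for rises, where 16.6% of all genes tested were called higher.

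Cell identity markers also differed between the same libraries. The counts below stand beside the 16.6% of all genes tested that limma called higher and the 11.1% it called lower. Of 18 tested squamous differentiation markers, limma called 11 higher and 2 lower with DZNep, and their summed level ran from 3907 to 4139 RPKM in DZNep and from 3379 to 3495 RPKM in DMSO. Of 10 basal markers 5 were higher and 3 lower (7087 to 7320 RPKM summed in DZNep, 5352 to 5597 in DMSO). Of 10 luminal markers 4 were higher and 0 lower (5138 to 5366 in DZNep, 4839 to 5014 in DMSO). Few genes carry these sums: KRT5, KRT14 and KRT15 gave most of the basal sum, and KRT19 the largest part of the luminal sum. KRT19 averaged 2742 RPKM in DZNep and 2778 RPKM in DMSO, and PSCA 896 and 628 RPKM. The median log2 difference was 0.36 over the squamous markers tested, 0.08 over the basal, 0.01 over the luminal and 0.01 over all genes. Of the fibroblast and smooth muscle list 2 of 10 passed the filter and both rose (8.32 to 9.50 RPKM summed in DZNep, 3.05 to 4.32 in DMSO), with COL1A2, COL3A1 and DES at 0. The 2 were DCN and ACTA2, and ACTA2, at 2.62 RPKM in DZNep and 0.692 RPKM in DMSO, passed the filter only through DZNep. The endothelial list kept 1 of 6 genes, which did not pass (2.25 to 2.81 in DZNep, 2.44 to 3.09 in DMSO), with CDH5 and EMCN at 0. Immune markers summed to 36.8 to 40.99 RPKM in DZNep and 27.9 to 42.1 in DMSO, with 3 of 15 above the filter and S100A8, which epithelia also make, the 1 that rose. The macrophage and lysosome marker CD68 averaged 17.3 ± 1.07 RPKM in DZNep and 14.9 ± 1.73 RPKM in DMSO (SD, n = 3 each; limma adjusted p = 0.0980). S100A9 averaged 15.7 ± 1.45 RPKM in DZNep and 16.7 ± 6.18 RPKM in DMSO (limma adjusted p = 0.923). CD3G, CD8A, NKG7, PRF1, MPO and ELANE were listed at 0, and PTPRC, the pan-leukocyte gene, reached at most 0.00494 RPKM. The part of any of these lists in the serpin differences was not tested, and in bulk RNA fewer cells of a type and less RNA per cell cannot be told apart.

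In the genetic experiment the question was the same for Tamoxifen against EtOH, and its SERPINB11 values chose the family. SERPINB11 measured 4.76 and 4.41 RPKM in the libraries labelled Tamoxifen, against 10.0 and 11.5 RPKM in EtOH. The difference of group means was -1.07 on the log2(RPKM + 1) scale, a ratio of mean RPKM of 0.425. Of the 11123 genes that averaged at least 1 RPKM in that table, 41 had a deeper fall. These are the values behind the choice and carry no test. In all, 7 members averaged at least 1 RPKM in the genetic table, of which 1 was higher and 4 lower with no overlap between the groups. SERPINB11 is among the 4 and also enters the median below, so both were partly set by the choice of the family. Over those 11123 genes, 36.6% were higher and 23.2% lower without overlap. The median log2 difference was -0.12 over the 7 members and 0.04 over the 11123 genes.

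SERPINB5, on chromosome 1 like SERPINB11, had the next lowest difference of the 7. It measured 61.3 and 56.2 RPKM in the libraries labelled Tamoxifen, against 80.9 and 77.4 RPKM in EtOH, a log2 difference of -0.42. SERPINB8 measured 6.89 and 6.91 RPKM in the libraries labelled Tamoxifen, against 8.20 and 7.19 RPKM in EtOH (-0.14). Both lay below EtOH in each library. SERPINB2, under 1 RPKM on average, was listed at 0 and at 0.0929 RPKM in the libraries labelled Tamoxifen, against 0.464 and 0.754 RPKM in EtOH (-0.62). SERPINB10 measured 0.307 and 0.457 RPKM in the libraries labelled Tamoxifen, against 0.528 and 0.808 RPKM in EtOH (-0.27). Of the other chromosome 1 members, SERPINB7 and SERPINB12 reached at most 0.0153 and 0.0332 RPKM, with overlap, and SERPINB13 and the 4 SERPINB3 genes were listed at 0 in all 4 libraries.

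On chromosome 13, SERPINB9 measured 7.44 and 5.95 RPKM in the libraries labelled Tamoxifen, against 7.46 and 7.22 RPKM in EtOH (-0.12), and SERPINB6B measured 7.71 and 5.70 RPKM in the libraries labelled Tamoxifen, against 7.61 and 6.34 RPKM in EtOH (-0.06). Both pairs overlapped. SERPINB1A measured 15.5 and 15.0 RPKM in the libraries labelled Tamoxifen, against 16.3 and 15.8 RPKM in EtOH (-0.07). SERPINB6A measured 133.5 and 135.0 RPKM in the libraries labelled Tamoxifen, against 132.1 and 131.7 RPKM in EtOH (0.03). SERPINB1A was thus lower and SERPINB6A higher without overlap. SERPINB1B measured 0.299 and 0.344 RPKM in the libraries labelled Tamoxifen, against 0.382 and 0.261 RPKM in EtOH, and SERPINB9B measured 0.181 and 0.231 RPKM in the libraries labelled Tamoxifen, against 0.253 and 0.153 RPKM in EtOH. Both overlapped.

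Among all 11123 genes above the filter, 23.2% were lower and 36.6% higher without overlap, shares to be set beside the marker counts. Of 17 squamous differentiation markers above the filter, 15 were lower and 0 higher without overlap. The squamous list summed to 2129 to 2389 RPKM in the libraries labelled Tamoxifen and 3099 to 3516 RPKM in EtOH. Of 10 basal markers 4 were lower and 3 higher without overlap (4473 to 4579 RPKM summed in the libraries labelled Tamoxifen, 5524 to 5916 in EtOH). Of 10 luminal markers 5 were lower and 3 higher (4139 to 4397 in the libraries labelled Tamoxifen, 4808 to 5198 in EtOH). The median log2 difference was -0.53 over the squamous markers, -0.01 over the basal, -0.12 over the luminal and 0.04 over all genes above the filter. Of the 3 immune markers above the filter S100A9 was lower without overlap, and the list summed to 18.3 to 19.8 RPKM in the libraries labelled Tamoxifen and 29.4 to 30.05 RPKM in EtOH. The fibroblast and smooth muscle list (2.79 to 4.25 RPKM summed in the libraries labelled Tamoxifen, 3.44 to 3.86 in EtOH) and the endothelial list (2.244 to 2.691 in the libraries labelled Tamoxifen, 2.179 to 2.954 in EtOH) each kept 1 gene, which overlapped. The part of these lists in the serpin values was not tested. KRT13, a keratin of non-cornified squamous epithelium, averaged 20.2 RPKM in the libraries labelled Tamoxifen and 60.4 RPKM in EtOH, and 175 RPKM in DZNep and 60.9 RPKM in DMSO. It was picked after its values were seen, had the lowest Tamoxifen difference of the squamous list (-1.54), and does not stand for that list. With DZNep 11 of the 18 squamous markers tested rose, but LOR (-0.33, limma adjusted p = 0.0156) and PPL (-0.28, limma adjusted p = 0.0297) fell.

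**Figure D4:**
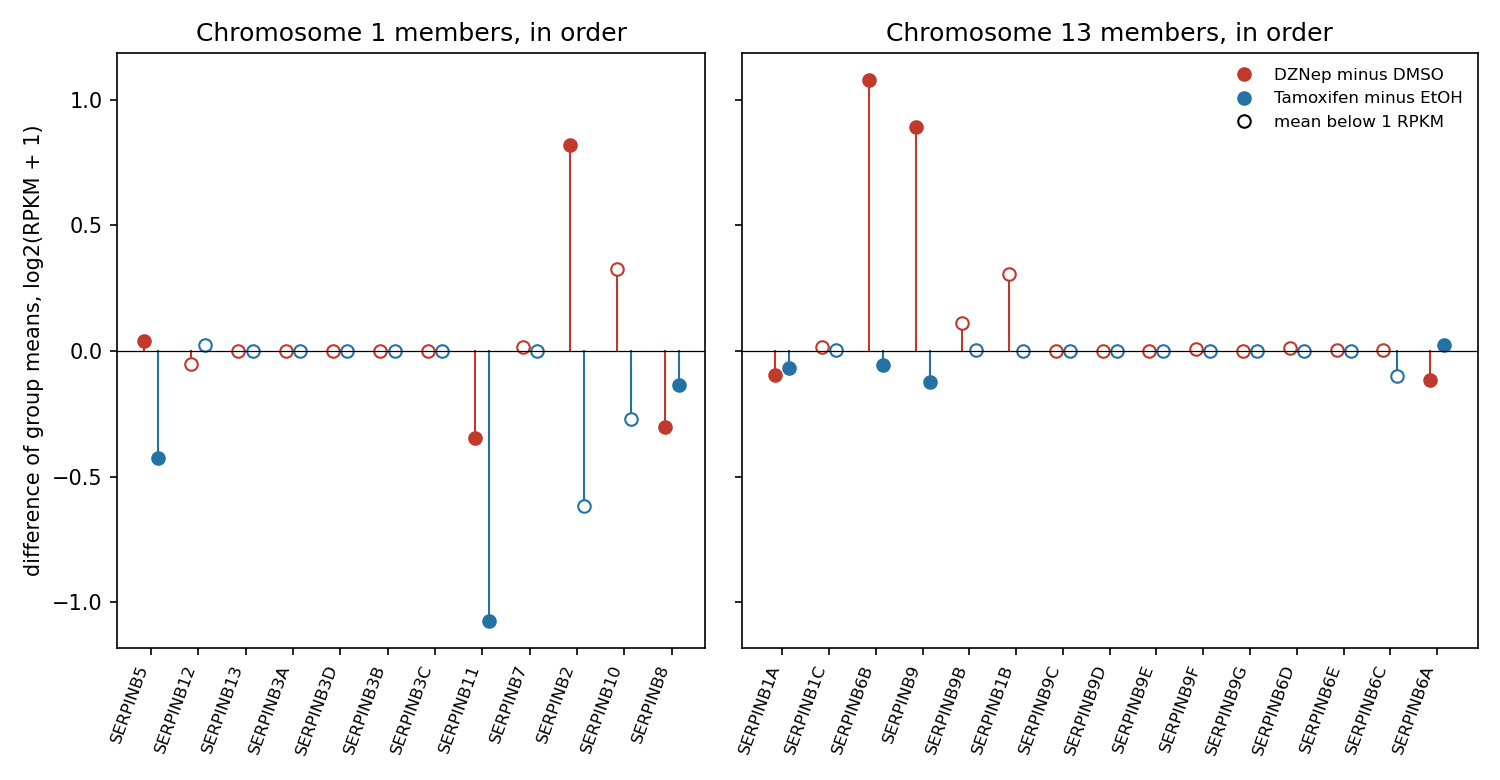
Differences of group means on the log2(RPKM + 1) scale for all 27 members in the order of the genes along chromosomes 1 and 13, red for DZNep minus DMSO and blue for Tamoxifen minus EtOH, with open points for members that average under 1 RPKM. DZNep values stand highest at SERPINB6B (1.08) and SERPINB9 (0.89) on chromosome 13, and Tamoxifen values lowest at SERPINB11 (-1.07) on chromosome 1.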

How the data were processed

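Each experiment has a deposited table of log2 RPKM values made by the authors. Their floor of 0 fits log2(RPKM + 1), and RPKM was taken back from them on that basis. Per the labels' protocols, stranded TruSeq mRNA libraries were made from 500 ng of RNA, and the submitters' processing notes name build mm9, STAR, Cufflinks and bcl2fastq 2.18. Sources used here do not give the handling of strand or of multiply aligned reads. Left out were 27 symbols turned into dates and 2 empty rows, all of the genetic experiment.

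Genes averaging at least 1 RPKM in a table were kept. DZNep was tested against DMSO with limma 3.58.1 in R 4.3.3 (mean trend, two-sided, Benjamini-Hochberg over 11143 genes, threshold 0.05), and the procedure was checked on simulated data. Absolute depth is not known. The spacing of the weakest values put relative depth between 0.757 and 1.16, with DMSO 1 set to 1, a ratio that held for 23.4% to 29.4% of weak genes. Levels were not tested across tables.

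The members, lists and motifs were chosen with earlier results of these data known. Every member averaging 1 RPKM is given by library, with the 3 highest members below that (4 in the genetic table). Of the listed proteases and of other serpins, the 3 smallest p in each direction are named. PLAU, FURIN, KRT13 and the level of 0.1 RPKM were picked out after their values were seen. Plots used matplotlib 3.10.9 (Python 3.11.15).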

Additional observations from a re-analysis of the deposited data

Results flagged for a closer look

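SERPINB2 lay on opposite sides of the control libraries in the 2 experiments. Its difference of group means on the log2(RPKM + 1) scale was 0.82 for DZNep minus DMSO, with all 3 DZNep libraries above every DMSO library, and -0.62 for Tamoxifen minus EtOH, with both Tamoxifen libraries below both EtOH libraries. The difference between the experiments was not tested. SERPINB2 lay under 1 RPKM in every library but those of DZNep. Groups of 2 or 3 libraries are too small to look for a single library standing apart.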

How the results depend on the processing

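Of the 8 members tested, 5 changed with DZNep under limma, and the same 5 were called with a pseudocount of 0.1, trimmed mean scaling, no trend, robust variances and a joint fit of all 10 libraries. Quantile normalization added SERPINB6A. Leaving out each library gave counts from 3 to 5, the lowest without DMSO 2, where SERPINB11 and SERPINB8 were lost. A filter of 5 RPKM left SERPINB2 untested and kept 4, and no filter gave 4, with SERPINB1B in and SERPINB11 and SERPINB8 out. Over all genes the 3088 calls became 1757 with no filter, 1610 with the block, 1522 without DMSO 2 and 1755 without DZNep 2. The cause was not tested. Of 119 other values, 114 kept their direction and side of the threshold, 4 lost the call and 1 gained it. Same-numbered DZNep and DMSO libraries did not visibly deviate together, with correlations of 0.06, 0.06 and -0.07. That does not show whether the replicates were paired. A replicate block kept 5 calls. SERPINB11 with Tamoxifen, a value without a test, was -1.21 with a pseudocount of 0.1 and ran from -1.16 to -0.98 without single libraries.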

Other observations

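The protein-coding genes that flank the clusters were also read, 3 on each side. Before the chromosome 1 cluster, BCL2, an inhibitor of apoptosis, averaged 12.8 ± 0.431 RPKM in DZNep and 10.8 ± 0.0601 RPKM in DMSO (SD, n = 3 each; log2 difference 0.23, limma adjusted p = 0.00919). KDSR, of sphingolipid synthesis, averaged 7.54 ± 0.0661 RPKM in DZNep and 6.03 ± 0.412 RPKM in DMSO (0.28, limma adjusted p = 0.00959), and VPS4B, of endosomal sorting, did not pass (-0.03, limma adjusted p = 0.702). On its other side DSEL did not pass (-0.21, limma adjusted p = 0.0799), and CDH7 and CDH19 were at or near 0, as was MYLK4 beside the chromosome 13 cluster. Around the chromosome 13 cluster, where SERPINB6B and SERPINB9 rose, GMDS (-0.14, limma adjusted p = 0.106) and WRNIP1 (0.10, 0.172) did not pass. Nor did NQO2 (-0.07, limma adjusted p = 0.488), RIPK1 (0.13, 0.0921) and BPHL (0.11, 0.338). Without passing, DSEL and GMDS were still lower, and WRNIP1 and RIPK1 higher, with no overlap between DZNep and DMSO libraries. Such non-overlap held for 19.4% (lower) and 26.1% (higher) of all genes tested. In the genetic table, where nothing was tested, BCL2 (9.34 RPKM in the libraries labelled Tamoxifen, 11.1 in EtOH), VPS4B (37.2 and 42.2), DSEL (2.29 and 3.01) and, beside the chromosome 13 cluster, GMDS (41.3 and 44.9) were lower without overlap, and WRNIP1 (23.3 and 21.0) was higher. KDSR (6.42 and 6.68), NQO2 (5.28 and 5.47), RIPK1 (11.7 and 11.4) and BPHL (17.98 and 17.6) overlapped between the groups. These genes were read after the serpin values were seen.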
